A study of Mus musculus with 22 samples.

Results

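The deposited tables give each gene an RPKM on its coding sequence (CDS) and an RPKM on its 5′ UTR, and for 116 of the 10516 genes the second value is not a number, because the length it was divided by is 0. These 116 genes were chosen by that rule, from the missing or infinite 5′ UTR value in at least 1 of the 22 libraries, and all 116 had no finite 5′ UTR value in any library. Their CDS values are complete, and serve here for RNA abundance, ribosome footprints and translation efficiency (TE, the log2 of footprint over RNA RPKM).

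The libraries came from NIH3T3 cells, a line of fibroblasts grown from mouse embryos, in which lentiviral shRNAs under puromycin selection were used to deplete Denr. Lysates were made from cells with Denr shRNA1 (n = 3), Denr shRNA2 (n = 3), scramble shRNA (n = 3) and Gfp shRNA (n = 2), the last 2 being the controls, and all cells were treated with cycloheximide (100 µg/ml, 2 min) before lysis. From each of the 11 lysates, RNase-resistant footprints of ribosomes (RPF-seq) and fragmented total RNA (RNA-seq) were sequenced. By the methods of the study a replicate is a dish of cells, while the labels speak of lysate pools and do not name separate cultures, so that p-values measure the spread between these lysates.

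The 5′ UTR is the stretch of mRNA that a scanning ribosomal subunit passes before it meets the start codon. Where this stretch holds a short upstream open reading frame (uORF), the main CDS is often reached only by ribosomes that resume scanning after the uORF and initiate again, a step that DENR, together with its partner MCTS1, is known to promote. A gene with no 5′ UTR in the annotation used for counting cannot hold a uORF there, but a real mRNA without any leader is rare in mammals.

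A second annotation listed a 5′ UTR for many of these genes. In GENCODE vM21, a release of the same genome build (GRCm38) other than the Ensembl release 84 of the study, 41 of the 116 genes (35.3%) had no 5′ UTR in any protein-coding transcript, 47 (40.5%) had one in some transcripts and 18 (15.5%) in every transcript, while 10 (8.62%) had no protein-coding transcript at all. On the transcript with the longest CDS, 58 of the 106 genes with a coding transcript lacked a 5′ UTR (54.7%), against 211 of 10368 other genes (2.04%). An AUG uORF with a stop codon in frame and at least 9 nt stood on that transcript in 29 of the 106 genes (27.4%), against 5106 of 10368 other genes (49.2%). The genes are therefore not free of uORFs by this annotation, and they are called zero-length genes below, after the rule that chose them.

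The CDS length behind the RPKM could be recovered from the values and was set against the coding transcripts of GENCODE vM21. An equal length does not prove which model the counting had used. In 56 of the 116 genes it equalled that of a transcript that begins at the A of its ATG, in 11 that of a transcript whose CDS start was not found, in 8 that of a transcript with another first codon, in 17 only that of transcripts with a 5′ UTR, and in 14 that of no coding transcript. For 2 genes the length used was the sum of CDS and 5′ UTR. One is Adm, which encodes the vasodilator peptide adrenomedullin (735 nt used, 552 of CDS without the stop codon and 183 of 5′ UTR), and the other is the helicase gene Mcm9 (3870 nt, which equalled 3402 and 468 nt but also a CDS without 5′ UTR). The median length used was 1348.5 nt, against 1410 nt for the other genes.

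The starts of 10 models show the kinds side by side, each as 30 bases of the transcript in the sense of the mRNA from GENCODE vM21 (GRCm38), with the position and strand of the gene. In 4 models with a complete CDS and no 5′ UTR, all of it exonic and coding, the first base of the transcript is the A of the start codon (capitals):
Hist2h2bb (chr3:96269752-96270132, plus strand): ATGccggatccagcgaagtctgctcctgcc
Usp31 (chr7:121642021-121707253, minus strand): ATGtccaaggtaacggcgcccgggcccggg
Prr12 (chr7:45027563-45052881, minus strand): ATGgacaggaactaccccagcgccggcttc
Pigl (chr11:62458460-62514417, plus strand): ATGgaattggtgggtttcttgtgtgtggcc
In 3 models whose CDS start was not found, the listed CDS begins with the first base of the transcript, and the first 3 bases (capitals) are no start codon:
Rhox5 (chrX:37804842-37808876, plus strand): ATTcagggtatggaagctgagggttccagc
Lrch2 (chrX:147470375-147554081, minus strand): ATTgtcgggggctattctctctcccaggaa
Fam149a (chr8:45336717-45382291, minus strand): GCAgtggccagcttttccggaggtcctggc
In 3 genes that have a 5′ UTR in every GENCODE vM21 transcript, the last 15 bases of that 5′ UTR stand before the start codon (capitals):
Hist1h1a (chr13:23763666-23764406, plus strand): tattcatcagcaaccATGtcggagacggcg
Stard9 (chr2:120629121-120731895, plus strand): ggttgtggcggagggATGgcgaatgtgcag
Fbxl7 (chr15:26540459-26895580, minus strand): catgacggcgacaggATGggcgcgaacaat

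These sequences were printed because levels or changes described below belong to these genes, except Fbxl7, and because they show that a length of 0 stands for different things. Rhox5, an X-linked homeobox gene, has an ATG from base 10 of its model, and whether the bases before it are coding was not tested. Hist1h1a has a 5′ UTR of 51 nt, Stard9 of 103 nt with 1 uORF, and Fbxl7, an F-box gene, of 531 nt with 4 uORFs. On the transcript with the longest CDS, which need not be the one counted, the CDS began with ATG in 95 of 106 zero-length genes (89.6%). The same held in 10304 of 10368 others (99.4%). The CDS start of that transcript was marked as not found in 7 (6.60%) against 44 (0.424%). The base after the ATG was a G in 54 of the 95 (56.8%), and in 5518 of the 10304 (53.6%).

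Although their 5′ UTR had no length, reads were assigned to the 5′ UTR of 2 genes, which then show an infinite RPKM. Cd300lb, an activating receptor of the CD300 family of immune cells, had such reads in 10 of 11 RPF-seq libraries (not in Gfp shRNA replicate 2) and in 8 of 11 RNA-seq libraries (not in Denr shRNA2 replicate 2 nor in either Gfp shRNA replicate). Tmem256, which encodes a small membrane protein, had them in all 11 RNA-seq libraries and in 0 of 11 RPF-seq libraries. All other values, 2523 of 2552, were listed as missing, which is what 0 reads divided by 0 give.

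Of the classes of gene names that were looked up, predicted, Zfp and histone genes had the most members among the zero-length genes, with no test of enrichment. Predicted genes made up 21 of 116 (18.1%) against 230 of 10516 genes (2.19%), Zfp zinc-finger genes 13 (11.2%) against 306 (2.91%), and histone genes 6 (5.17%) against 63 (0.599%). Usp and Ube genes of the ubiquitin system made up 2 (1.72%) against 76 (0.723%), and Tmem genes 2 (1.72%) against 132 (1.26%). Of the ribosomal protein genes there was only Rpl13-ps3, 1 of 82, listed as a pseudogene by its name, and none of the 171 Slc transporters or the 74 mitochondrial ribosomal protein genes. Of the Mex3 genes, which encode RNA-binding ubiquitin ligases and were looked up after the names had been seen, 3 of 4 were in the set. Reads of histone genes, of Rpl13-ps3, of Zfp955a and Zfp955b and of Pagr1b, the copy of Pagr1, can be shared with near-identical genes, so that their values are uncertain.

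The RPF-seq libraries held 10006905 to 20283926 reads on the CDS of all genes, the RNA-seq libraries 7730990 to 18212778, and the zero-length genes took 0.498 to 0.765% and 0.634 to 0.858% of them. Hist2h2bb alone, a histone H2B gene, held 32.3 to 50.5% of these footprints and 20.5 to 44.2% of the RNA reads, while the median gene had 103 to 218 footprints and 134 to 323 RNA reads per library. A mean of at least 1 RPKM in both assays was reached by 109 of the 116 genes, and missed by Nlrc5, Npas3, Cubn, Ccdc138, Ppp1r3f, Nuggc and Tnxb. All 8 fibroblast markers that were looked up were present, Vim at 3834 to 4432 RPKM, and of the epithelial, blood and neural markers only Cdh1 was listed, at 2.74 to 4.05 RPKM. Among the RNA-seq libraries, the deviation from each gene's mean over the libraries had the largest median size in Denr shRNA1 replicate 1 (0.244 on the log2 scale), followed by scramble shRNA replicate 3 (0.188), which was also the largest in RPF-seq (0.172). Across genes, this deviation went with CDS length at a Spearman rho of -0.333 in Denr shRNA1 replicate 1, -0.347 in Gfp shRNA replicate 1 and 0.330 in Denr shRNA2 replicate 2, and from -0.095 to 0.246 in the other 8 RNA-seq libraries. Denr itself had 34.4 to 44.0 RNA RPKM with Denr shRNA1, 15.5 to 20.8 with Denr shRNA2, and 165 to 190 in the 5 control lysates (log2 change -2.75, SE 0.25, adjusted p = 0.00035).

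The first comparison concerned the levels in the 5 control lysates. The zero-length genes were low in RNA, lower still in footprints, and low in TE. Their median RNA level was 9.78 RPKM (quartiles 4.53 and 36.2) against 28.4 RPKM for the other genes (10.9 and 72.1), and their median footprint level 6.83 RPKM (2.77 and 16.3) against 23.3 RPKM (7.88 and 72.2). The median log2 TE was -0.55 (quartiles -1.34 and 0.07), against -0.07 (-0.75 and 0.44), and with all genes cut into 4 equal bins by TE, 45 of the 116 genes lay in the lowest bin, 35 in the next, 23 in the one above and 13 in the highest. The offset between the medians of zero-length and other genes was negative in all 11 lysates, from -0.61 to -0.31 in the 6 knockdown lysates and from -0.56 to -0.26 in the 5 controls. The same offset stood in the scramble shRNA lysates alone (-0.52 against -0.08) and among genes of at least 1 RPKM (-0.51 against -0.05). Among the other genes, the median was -0.30 in the 211 without a 5′ UTR on their longest-CDS transcript and -0.36 in the 5106 with an AUG uORF. It was 0.16 in the 5051 with a 5′ UTR but no AUG uORF. A median below -0.07 was thus not particular to the zero-length genes. Within the zero-length genes, the median was -0.83 in the 29 with an AUG uORF and -0.45 in the 58 without a 5′ UTR. It was -0.19 in the 19 with a 5′ UTR but no AUG uORF, and -0.42 in the 10 without a coding transcript. These medians are a description. The CDS length enters the RPKM of both assays alike, but because 0.1 was added to each RPKM, it does not cancel exactly in TE. Whether the models used for counting bear on these levels was not tested.

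**Figure D1:**
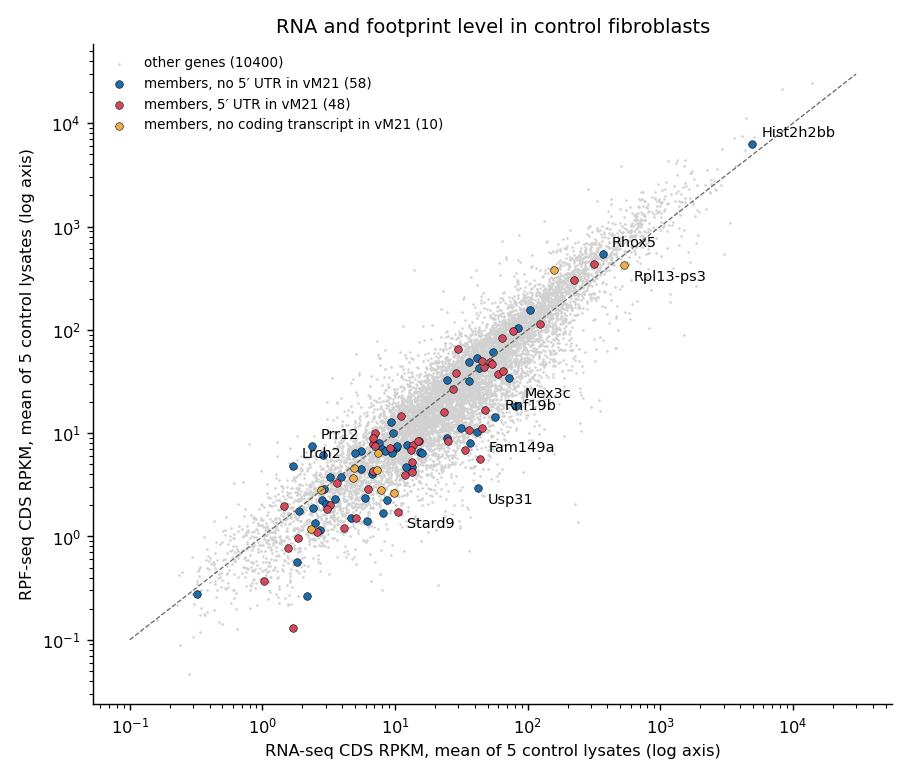
Each point is a gene, with its mean RNA-seq CDS RPKM in the 5 control lysates on the x axis and its mean RPF-seq CDS RPKM on the y axis, both on log axes; zero-length genes are coloured by what GENCODE vM21 lists on their longest-CDS transcript (no 5′ UTR, a 5′ UTR, or no coding transcript), and the dashed line marks equal values. The 116 zero-length genes extend from the lowest levels to Hist2h2bb at the top, and lie mostly below the line, with Usp31 far under it at 37.8 to 45.9 RNA and 2.58 to 3.62 footprint RPKM.

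The 8 highest genes in RNA included 3 histone genes and Rpl13-ps3. Hist2h2bb had the highest RNA level, with 4696, 4037 and 3292 RPKM in the scramble and 7095 and 5648 in the Gfp shRNA lysates, the fourth highest of all genes, and its log2 TE was 0.35 ± 0.15 (SD, n = 5). It was followed by Rpl13-ps3 (537 ± 39.1 RPKM), Rhox5 (368 ± 24.3), the linker histone gene Hist1h1a (317 ± 101), Tmem256 (225 ± 15.4), the unnamed gene ENSMUSG00000096807 (158 ± 30.3), Commd1, known for copper homeostasis (123 ± 7.88), and the H2A gene Hist1h2ai (105 ± 36.0). Within 1 SD, Hist1h1a was not apart from its neighbours Rhox5 and Tmem256, nor Commd1 from ENSMUSG00000096807 and Hist1h2ai, and the other neighbours in this order did not overlap.

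The highest TE among genes of at least 1 RPKM belonged to Prr12, which encodes a proline-rich nuclear protein. Its footprints were 6.90, 7.59 and 7.54 RPKM in the scramble and 6.82 and 8.35 in the Gfp shRNA lysates, over an RNA level of 2.06 to 2.59 RPKM, so that its log2 TE was 1.62 ± 0.13 (SD, n = 5), the rank 183 of 10516. Lrch2, a gene with leucine-rich repeats, followed with 1.52 ± 0.64, where the Gfp shRNA replicate 1 library gave 2.58 at 0.727 RNA RPKM and the other 4 controls 0.95 to 1.57. ENSMUSG00000096807 had a log2 TE of 1.26 ± 0.17, and B230217C12Rik of 1.13 ± 0.52. Neighbours in this order overlapped within 1 SD.

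The lowest TE belonged to Usp31, a deubiquitinating enzyme whose RNA was well above the median. In every control lysate its RNA level was 37.8 to 45.9 RPKM and its footprint level 2.58 to 3.62 RPKM, which gave a log2 TE of -3.81 ± 0.27 (SD, n = 5) and the rank 10478 of 10516. Fam149a had 43.5 ± 2.06 RNA RPKM but 5.62 ± 0.85 footprint RPKM, a log2 TE of -2.94 ± 0.28. The long mitotic kinesin Stard9 had a log2 TE of -2.52 ± 0.18, and the predicted gene Gm21887 of -2.23 ± 0.62. Usp31 lay below Fam149a by more than their SDs, while the other neighbours in this order overlapped.

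Other genes of the ubiquitin system that were picked out after their values were seen also lay low. The log2 TE was -2.14 ± 0.48 for the deubiquitinase Usp34, -2.01 ± 0.11 and -1.99 ± 0.14 for the ubiquitin ligases Rnf217 and Rnf19b, and -2.12 ± 0.18 and -2.01 ± 0.24 for Mex3c and Mex3d, but -0.31 ± 0.29 for Mex3a, whose RNA level was 2.79 RPKM. The other 74 Usp and Ube genes of the table had a median of -0.37. The 13 Zfp genes, mostly presumed DNA-binding repressors, had a median log2 TE of -0.90 (from -2.22 to -0.28), close to the -0.96 of the other 293 Zfp genes. The 6 histone genes had a median of 0.33 (from -0.01 to 0.54), and the other 57 histone genes 0.52, while the 21 predicted genes had -0.58 and the other 209 had -0.17. The median of the histone genes was thus the only one of these groups above 0.

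The second comparison asked whether TE changed with Denr knockdown, 6 lysates against 5. No zero-length gene passed the test. The limma fit called 0 of 116 at an FDR of 0.1, while over all genes it called 0.475% as lower and 0% as higher (0.475% in either direction), and voom on the recovered reads called 0 of 116 as well. At an unadjusted p below 0.05, 4 genes were lower against a background of 5.18%, namely Hist1h2aa, Rtl9, Pagr1b and Tnxb, and 1 was higher against 1.47%, Gm21887. The lysates of knockdown and control overlapped in all 116 genes, whereas all knockdown lysates were below all controls in 1.32% of the table and above them in 0.0951%. In 60 genes the change was below 0 and in 56 above (51.7% and 48.3%), against 54.7% and 45.3% of all genes. The median change was -0.01 on the log2 scale (quartiles -0.08 and 0.09), and also -0.01 for the other genes (-0.10 and 0.06). With single lysates left out, the median of the zero-length genes lay on both sides of 0, from -0.035 without Denr shRNA1 replicate 1 to 0.035 without Gfp shRNA replicate 1.

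**Figure D2:**
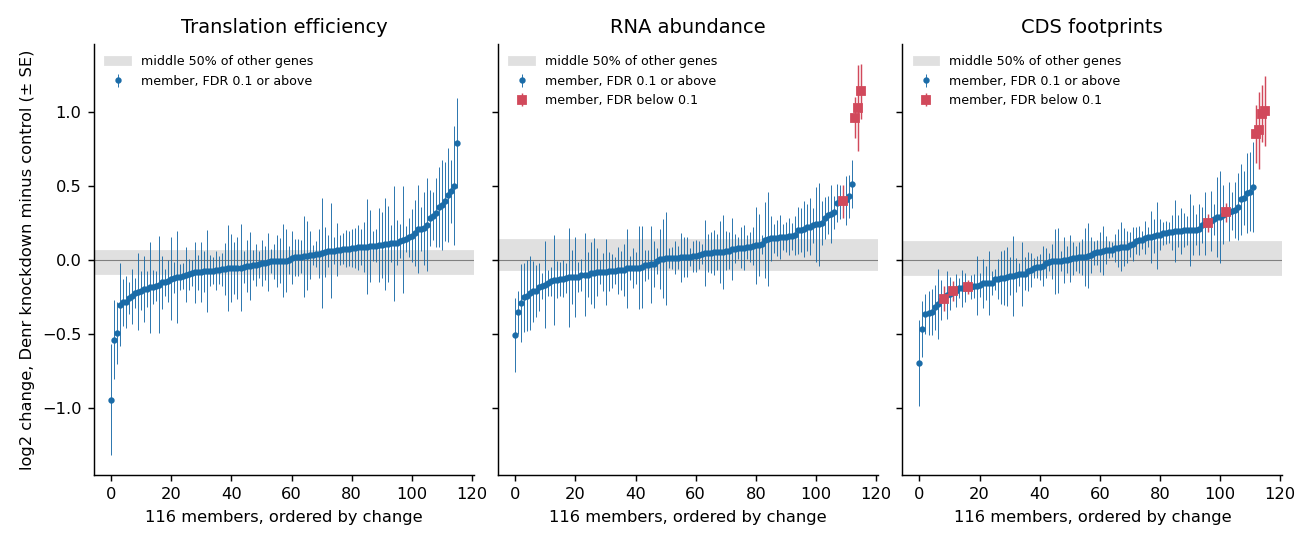
The 3 panels show the log2 change of knockdown minus control (y axis) in TE, RNA abundance and CDS footprints for the 116 zero-length genes, ordered by change along the x axis, with bars of 1 SE and red squares for genes past the FDR of 0.1; the grey band holds the middle 50% of the other genes. No gene is marked in TE, 4 are marked in RNA and 9 in footprints, and the middle of each curve runs inside the band.

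The genes with the largest fitted TE differences were of low expression and scattered widely. Pagr1b, a copy of a gene for a subunit of a histone methyltransferase complex, had a log2 TE of -0.53, 0.13 and 0.25 in the scramble and -0.87 and -0.14 in the Gfp shRNA lysates, and from -2.54 to -0.23 with a median of -1.14 in the 6 knockdown lysates. The groups overlapped, and the difference of -0.95 (SE 0.38) did not pass (adjusted p = 0.646; exact two-sided permutation test, p = 0.0584). At the other end, Gm21887 had -3.10, -2.54 and -1.51 in the scramble and -2.13 and -1.85 in the Gfp shRNA lysates, and -2.22 to -0.67 with a median of -1.41 in the knockdown. Here too the groups overlapped, with a difference of 0.79 (SE 0.30, adjusted p = 0.625; exact permutation test, p = 0.0563).

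The remaining genes at both ends did not pass either. The differences were -0.54 (SE 0.27) for Gm5239, -0.49 (SE 0.21) for the H2A gene Hist1h2aa and -0.29 (SE 0.16) for Tnnt2, the gene of cardiac troponin T, and 0.50 (SE 0.40) for 9030624G23Rik, 0.46 (SE 0.21) for ENSMUSG00000071295 and 0.44 (SE 0.32) for ENSMUSG00000070632, with adjusted p between 0.699 and 0.964. In simulated data, 200 genes of 10516 were changed, drawn from the whole table, with normal noise of each gene's own spread. The same fit found 94% of TE changes of 1, 70% of 0.5 and 7% of 0.3 on the log2 scale. TE changes of 0.3 in single genes were thus mostly not detectable with these lysates. Detection among the zero-length genes alone, whose levels were lower, was not simulated.

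Divided by the 5′ UTR that GENCODE vM21 gives them, the zero-length genes did not separate in TE change. The median TE change was -0.02 in the 58 genes without a 5′ UTR, 0.03 in the 19 with a 5′ UTR but no AUG uORF, -0.01 in the 29 with an AUG uORF and 0.09 in the 10 without a coding transcript. For the other genes it was 0.00 in 5051 with a 5′ UTR and no AUG uORF, -0.03 in 5106 with an AUG uORF and -0.04 in the 211 whose longest-CDS transcript has no 5′ UTR but whose counted model had one. Of the 50 genes called, 35 were among the 5106 other genes with an AUG uORF and 14 among the 5051 with a 5′ UTR and no AUG uORF. The last 1 was among the 211. None of the 116 zero-length genes was called, where the share over all genes was 0.475%, too low for this count to set them apart. The median of all 116 lay between these classes of the other genes, 0.03 above the class with uORFs, and the quartiles of the classes overlapped. In single lysates the median TE of the 58 genes without a 5′ UTR, relative to each gene's mean, ran from -0.09 to 0.09 in the knockdown and from -0.06 to 0.13 in the controls, so that the groups of lysates overlapped. For the 5106 other genes with an AUG uORF it ran from -0.08 to 0.01 and from 0.00 to 0.05.

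**Figure D3:**
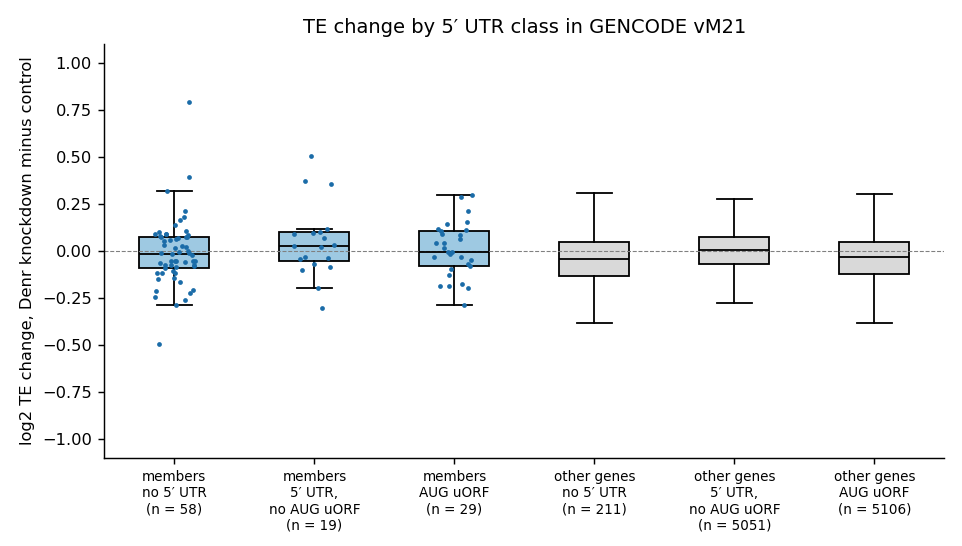
Boxes show the log2 TE change of knockdown minus control (y axis) by the 5′ UTR that GENCODE vM21 lists on the longest-CDS transcript, for zero-length genes (blue, with every gene as a point) and other genes (grey, outliers not drawn); lines are medians, boxes quartiles and whiskers reach to 1.5 times their distance. The blue boxes overlap one another and the grey ones, with medians from -0.02 to 0.03, and the 10 genes without a coding transcript are not drawn.

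RNA abundance was compared next. The limma fit called 4 of 116 genes as higher (2.68% of all genes) and 0 as lower (0.865%), in all 3.45% of the set against 3.55% of the table. At an unadjusted p below 0.05, 11 were higher (11.2% of all genes) and 1, the mitochondrial metaxin gene Mtx3, was lower (4.92%). The knockdown lysates were all above the controls in 3 genes, Pigl, Tnnt2 and Cd300lb (2.63%), and all below in 0 (1.04%). There were 68 genes with a change above 0 and 48 below (57.1% and 42.9% of all genes), and the median change was 0.02 against 0.03 for the other genes, and -0.0027 without Gfp shRNA replicate 1. Neither the share called nor the median stood off from the table.

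The genes that rose in RNA were mostly low in these fibroblasts. Tnnt2 had 3.37, 3.75 and 3.96 RNA RPKM in the scramble, 2.42 and 1.77 in the Gfp shRNA, 5.31, 6.70 and 5.76 in the Denr shRNA1 and 7.997, 6.82 and 7.27 in the Denr shRNA2 lysates. All 6 knockdown lysates were above all 5 controls, and RNA rose by 1.14 on the log2 scale (SE 0.19, adjusted p = 0.00787; exact two-sided permutation test, p = 0.00216, the smallest it can give).

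Cd300lb had 5.27, 5.51 and 4.04 RNA RPKM in the scramble and 6.38 and 3.93 in the Gfp shRNA lysates, against 7.98 to 12.1 with a median of 9.73 in the 6 knockdown lysates. The groups did not overlap, and the change was 0.96 (SE 0.14, adjusted p = 0.00454; exact permutation test, p = 0.00216). This call was kept in all 22 alternatives that were run.

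Ranbp3l, which encodes a RAN-binding protein, had 5.59, 6.59 and 10.4 RNA RPKM in the scramble and 10.4 and 15.4 in the Gfp shRNA lysates, against 8.80 to 24.7 with a median of 22.2 in the knockdown. The groups overlapped, with Denr shRNA1 replicate 1 the lowest of the knockdown lysates, and the change of 1.03 (SE 0.29) passed narrowly (adjusted p = 0.0973; exact permutation test, p = 0.0238). Without any single 1 of Denr shRNA1 replicates 2 and 3 and all replicates of Denr shRNA2 and scramble shRNA it did not pass, with adjusted p from 0.138 to 0.247 and changes from 0.86 to 1.08.

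Pigl, whose enzyme acts in the synthesis of glycosylphosphatidylinositol anchors, had 5.79, 5.84 and 4.26 RNA RPKM in the scramble and 5.81 and 5.92 in the Gfp shRNA lysates, against 5.93 to 8.02 with a median of 7.51 in the knockdown. The groups just did not overlap, and the change was 0.39 (SE 0.11, adjusted p = 0.093; exact permutation test, p = 0.00433). It did not pass without any single 1 of 9 lysates, all but Denr shRNA2 replicate 2 and Gfp shRNA replicate 1, with adjusted p from 0.106 to 0.182.

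The number of RNA calls depended on single lysates. There were 8 without Gfp shRNA replicate 1, 11 without both Denr shRNA1 replicate 1 and Gfp shRNA replicate 1 (an alternative chosen after the data had been seen), and 2 without any single 1 of Denr shRNA1 replicates 2 and 3, Denr shRNA2 replicates 1 and 3 and the 3 scramble shRNA replicates. Centring the libraries on their median left 2, Tnnt2 and Cd300lb, and turned the split over all genes from 91 lower and 282 higher to 107 and 191. For the counts with lysates left out, the share of all genes called is not given, so that they do not set the zero-length genes apart.

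**Figure D4:**
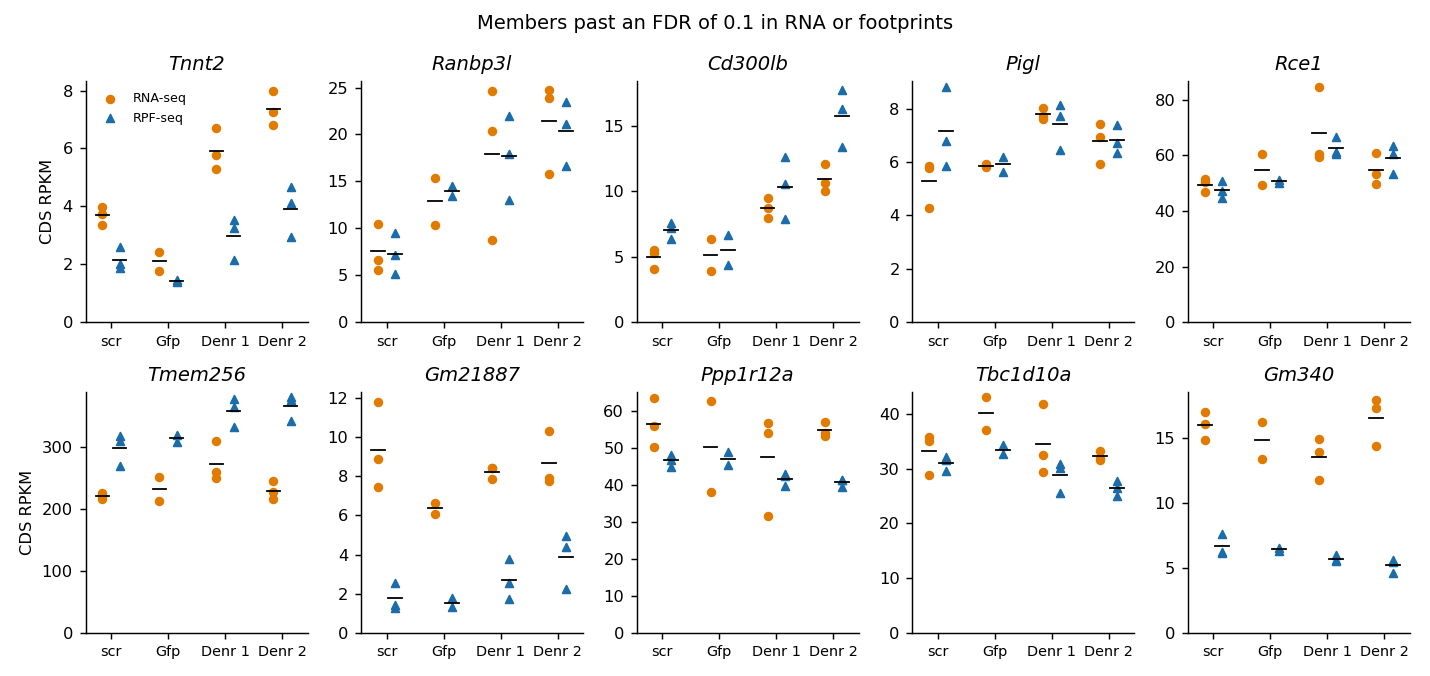
CDS RPKM (y axis, from 0) of the 10 zero-length genes past the FDR of 0.1 in RNA or footprints, in every lysate of scramble (scr), Gfp and both Denr shRNAs (x axis); circles are RNA-seq, triangles RPF-seq and bars the group means. In Tnnt2, Ranbp3l and Cd300lb both group means are higher with either Denr shRNA than in the controls, whereas in Gm21887, Rce1 and Tmem256 the footprint means are higher, and in Ppp1r12a, Tbc1d10a and Gm340 lower, with RNA of overlapping groups.

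Footprints on the CDS gave the most calls, 6 of 116 higher (5.47% of all genes) and 3 lower (4.55%), in all 7.76% of the set against 10% of the table. At an unadjusted p below 0.05, 14 genes were higher and 11 lower (12.7% and 10.9% of all genes). The lysates separated fully upward in 3 genes, Tmem256, Rce1 and Cd300lb (2.48%), and downward in 2, Gm340 and Ppp1r12a (1.97%). A change above 0 was seen in 66 genes and below 0 in 50 (51.9% and 48.1% of all genes), with a median of 0.04 against 0.01 for the other genes.

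Of the genes with more footprints, 3 had also been called in RNA. Cd300lb had 6.37, 7.17 and 7.54 footprint RPKM in the scramble and 4.32 and 6.64 in the Gfp shRNA lysates, against 7.88 to 17.7 with a median of 13.0 in the knockdown. The groups did not overlap, and footprints rose by 0.99 (SE 0.19, adjusted p = 0.0149; exact permutation test, p = 0.00433). Ranbp3l rose by 1.01 (SE 0.24, adjusted p = 0.0298) and Tnnt2 by 0.85 (SE 0.20, adjusted p = 0.0266), each with lysates that overlapped, and the TE differences were -0.02 for Ranbp3l, -0.29 for Tnnt2 and 0.03 for Cd300lb, with adjusted p of 0.843 or above.

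Rce1, the protease that trims prenylated proteins such as RAS, had 47.3, 44.5 and 50.9 footprint RPKM in the scramble and 50.01 and 51.2 in the Gfp shRNA lysates, against 53.5 to 66.7 with a median of 60.9 in the knockdown. All knockdown lysates lay above all controls, and the change was 0.32 (SE 0.06, adjusted p = 0.0156; exact permutation test, p = 0.00433), kept in all 22 alternatives. Its RNA difference was 0.23 (SE 0.12) and did not pass (adjusted p = 0.355).

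Tmem256 had 269, 318 and 309 footprint RPKM in the scramble and 309 and 320 in the Gfp shRNA lysates, against 333 to 381 with a median of 371 in the knockdown. The groups did not overlap, and the change was 0.25 (SE 0.06, adjusted p = 0.0336; exact permutation test, p = 0.00433). Gm21887 had 1.29, 1.44 and 2.55 footprint RPKM in the scramble and 1.30 and 1.78 in the Gfp shRNA lysates, against 1.73 to 4.94 in the knockdown, and rose by 0.88 (SE 0.26, adjusted p = 0.0689) with groups that overlapped. Without any single 1 of Denr shRNA1 replicate 2, Denr shRNA2 replicates 1 and 3, Gfp shRNA replicate 1 and scramble shRNA replicates 1 and 2, its call was lost, with adjusted p from 0.109 to 0.159.

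Of the genes with fewer footprints, Ppp1r12a was the clearest. It encodes the subunit that directs a phosphatase to myosin, and had 46.7, 44.7 and 48.1 footprint RPKM in the scramble and 48.7 and 45.2 in the Gfp shRNA lysates, against 39.3 to 42.8 with a median of 41.2 in the knockdown. The groups did not overlap, and footprints fell by 0.18 (SE 0.05, adjusted p = 0.0498; exact permutation test, p = 0.00216). The adjusted p was 0.107 without Denr shRNA2 replicate 2 and 0.109 without scramble shRNA replicate 1.

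The predicted gene Gm340, with 6.12 to 7.62 footprint RPKM in the 5 controls and 4.62 to 5.94 in the knockdown, fell by 0.26 (SE 0.09, adjusted p = 0.0927). The RAB regulator gene Tbc1d10a, with 29.5 to 34.2 against 25.1 to 30.7 RPKM, fell by 0.21 (SE 0.07, adjusted p = 0.0865). The groups were apart in Gm340 and overlapped in Tbc1d10a. The call of Gm340 was lost without any single 1 of 9 lysates, all but Denr shRNA1 replicate 3 and Gfp shRNA replicate 2 (adjusted p 0.102 to 0.218), and that of Tbc1d10a without any of 8, all but Denr shRNA1 replicates 1 and 2 and scramble shRNA replicate 3 (0.104 to 0.162).

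The number of footprint calls was 18 without Gfp shRNA replicate 2 and 5 without scramble shRNA replicate 1. Here too the share of all genes called without these lysates is not given, so that the counts do not set the zero-length genes apart. With the Denr shRNA1 lysates alone against the controls, the footprint calls of Tnnt2, Ranbp3l and Tmem256 and the RNA call of Tnnt2 were lost (adjusted p = 0.134, 0.135, 0.131 and 0.126). The footprint calls of Ppp1r12a, Gm340, Tbc1d10a and Gm21887 were also lost (adjusted p = 0.198, 0.301, 0.345 and 0.227). So were the RNA calls of Pigl and Ranbp3l (0.136 and 0.3735). The calls of Cd300lb in RNA and footprints and of Rce1 in footprints were kept. With Denr shRNA2 alone, Ppp1r12a and Gm340 lost their footprint call and Pigl its RNA call (adjusted p = 0.104, 0.123 and 0.281).

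The 6 histone genes differed widely among lysates of the same shRNA. Hist2h2bb had 4696, 4037 and 3292 RNA RPKM in the scramble, 7095 and 5648 in the Gfp shRNA, 10114, 5207 and 3900 in the Denr shRNA1 and 6730, 4122 and 3654 in the Denr shRNA2 lysates. Its highest RNA value was 3.07 times its lowest, the lysate with the number 1 was the highest in all 4 groups, and the change with knockdown was 0.13 (SE 0.26, adjusted p = 0.847). Hist1h1a, Hist1h2ai and Hist1h3h, which encode histones H1, H2A and H3, were also highest in number 1 in 4 of 4 groups, Hist1h2bn and Hist1h2aa in 3 of 4, with ratios of highest to lowest from 2.46 to 4.15. No histone gene of the set was called in any of the 3 comparisons.

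**Figure D5:**
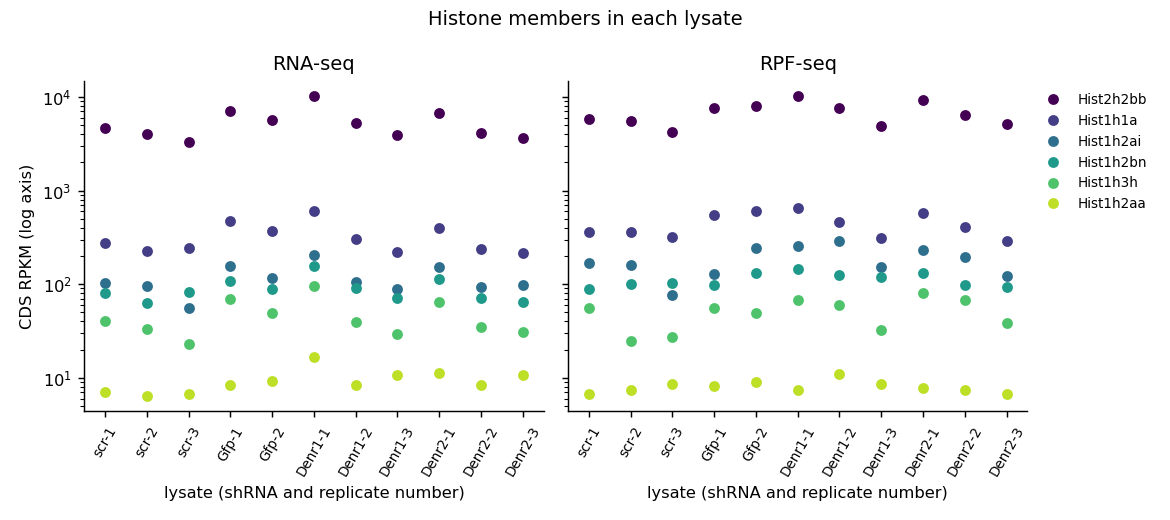
CDS RPKM on a log axis of the 6 zero-length histone genes in each lysate (x axis: shRNA and replicate number), for RNA-seq on the left and RPF-seq on the right, each point being 1 library. In RNA-seq, Denr shRNA1 replicate 1 is the highest point of every gene.

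The other 57 histone genes of the table moved alike in the same lysates. Relative to each gene's mean, the median RNA level of the 6 genes was 0.95 in Denr shRNA1 replicate 1 and -0.52 in scramble shRNA replicate 3, and that of the other 57 was 0.91 and -0.20. What sets these lysates apart was not tested.

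The median changes were also taken by the length of the genes, with no test. In the 38 shortest zero-length genes (297 to 807 nt) the median footprint change was 0.13, in the 39 of middle length 0.09, and in the 39 longest (1938 to 13683 nt) -0.05, and the median TE change was 0.05, 0.05 and -0.06. In RNA it was 0.08, -0.05 and 0.01, in no order of length. In the other genes of the same length ranges (2105, 4322 and 3341 genes), the median footprint change was 0.06, 0.01 and -0.04, and the median TE change 0.03, -0.0041 and -0.06. The part of the libraries whose deviation went with CDS length was not tested here.

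The Denr shRNAs were last compared with each other, shRNA2 minus shRNA1, in a fit with all 4 groups. No zero-length gene differed in TE (0% of all genes; 3 at an unadjusted p below 0.05), 3 differed in RNA (2.06% of all genes) and 8 in footprints (9.69%). Rtl9, a gene derived from a retrotransposon, had 10.3, 9.21 and 10.3 RNA RPKM with Denr shRNA1 and 15.7, 16.3 and 15.2 with Denr shRNA2, while the 5 controls had 10.9 to 13.3. Denr shRNA1 lay below and Denr shRNA2 above all controls, with a difference of 0.66 (SE 0.10, adjusted p = 0.00995). Hic1, a transcriptional repressor, had 11.2, 9.40 and 8.85 RNA RPKM with Denr shRNA1 and 6.30, 6.44 and 7.42 with Denr shRNA2, a difference of -0.54 (SE 0.12, adjusted p = 0.063). Arid1b, a subunit of a chromatin remodelling complex, had 9.57, 9.88 and 9.96 RNA RPKM with Denr shRNA1 and 12.2, 14.4 and 15.7 with Denr shRNA2, a difference of 0.51 (SE 0.11, adjusted p = 0.063).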

How the data were processed

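Ribosome profiling (RPF-seq) and RNA-seq of 11 lysates of NIH3T3 cells were analysed, 6 with a Denr shRNA and 5 with a control shRNA. The authors deposited, for each gene and library, 2 RPKM values, for CDS and 5′ UTR. By the study's methods and the submitters' processing notes, reads were trimmed with cutadapt, aligned to rRNA, tRNA, cDNA and genome (GRCm38) with Bowtie2 2.2.1 and TopHat2 2.0.11 after base calling with CASAVA 1.82, and counted on isoforms that Cufflinks 2.2.1 found expressed, footprints by their putative A-site with the CDS preferred for ambiguous reads. Genes with few reads and mitochondrial genes were removed, and the upper-quartile normalization was applied to RPF-seq and RNA-seq separately. The isoform set itself was not used here, and libraries were not pooled.

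A gene was counted as zero-length when its 5′ UTR RPKM was missing (NA) or infinite. The genes, the lists of gene classes and the tests were chosen with earlier results of these data known. The reads behind every RPKM were recovered from its steps, with the smallest length that made all values of a gene whole reads. Such a length was found for all 10516 genes, within a tolerance of 0.001 that grew slightly with the reads. That 231352 of 231352 CDS values were whole reads follows from this choice and is no separate check. Values were taken as log2(CDS RPKM + 0.1), so that fold changes of low genes are understated, and log2 TE was the difference of the assays of a lysate. Knockdown and control were compared with limma 3.58.1 (R 4.3.3, lmFit and eBayes with trend, no covariate) over all 10516 genes, at an FDR of 0.1 (Benjamini-Hochberg), as in the study. Its own TE tools (Xtail, RiboDiff, Riborex, Babel) were not run. Single genes were also tested by an exact two-sided permutation test over the 462 splits of 11 lysates into 6 and 5. No test was made over the set.

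Named genes were those past the FDR (at most 6 per direction and fit), the 8 highest in RNA, the 4 highest and 4 lowest in TE, the 4 with the largest TE difference each way, those with an infinite 5′ UTR value, and Denr, the TE parts limited to a mean of at least 1 RPKM in both assays. uORFs were AUG frames of at least 9 nt on the GENCODE vM21 transcript with the longest CDS, and 112 of the 116 gene IDs were found there. Alternatives were pseudocounts of 0.01 and 1, a mean of at least 1 RPKM, centred libraries, eBayes without trend, voom on the recovered reads, scramble shRNA alone, each Denr shRNA alone, an interaction over the 22 libraries, the replicate number as a block, each lysate left out, and, added after the data had been seen, Denr shRNA1 replicate 1 and Gfp shRNA replicate 1 both left out. The fits were tested on simulated data. No pair of replicates agreed within sampling noise (chi-square per gene at least 3.59). Python 3.11.15, numpy 2.4.6, pandas 2.3.3, matplotlib 3.10.9 and data.table, version 1.17.8, were used.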

Additional observations from a re-analysis of the deposited data

Results flagged for a closer look

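In 186 groups of 5 or 6 lysates, for the named genes in 3 readouts, 18 groups held a sample far from the others of its group, where chance flags about 1 group in 20. In 10 of the 18 this sample was Denr shRNA1 replicate 1, whose RNA-seq library had the largest median deviation.

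On the log2(RPKM + 0.1) scale of RNA, Denr shRNA1 replicate 1 stood above the other knockdown lysates in Tbc1d10a (5.39), Rce1 (6.41) and Rhox5 (8.83), and below them in Ppp1r12a (4.99) and Usp31 (5.22). In log2 TE the same lysate was the highest of its group in Ranbp3l (0.565) and Ppp1r12a (0.433), and the lowest in Cd300lb (-0.262), Rce1 (-0.468) and Tmem256 (0.103). Denr shRNA2 replicate 1 was far below the other knockdown lysates in Gm340 footprints (2.24) and in the TE of Gm5239 (-1.74), and Denr shRNA2 replicate 3 far above them in Gm21887 RNA (3.38).

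Among the controls, scramble shRNA replicate 3 stood out in Pigl, low in RNA (2.12) and high in TE (1.03), and scramble shRNA replicate 1 was low in Tmem256 footprints (8.07) and in the TE of ENSMUSG00000071295 (-0.508). Gfp shRNA replicate 1 was low in Lrch2 RNA (-0.275).

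The Denr shRNAs differed from each other in 8 zero-length genes, by limma with Benjamini-Hochberg adjustment. As log2 differences of Denr shRNA2 minus Denr shRNA1, RNA differed by -0.536 in Hic1, 0.51 in Arid1b and 0.661 in Rtl9. Footprints differed by -0.552 in Hic1, 0.353 in Arid1b and 0.412 in Rtl9, so that all 3 genes had the sign of their RNA. Footprints also differed by 0.362 in Rnf217, -0.751 in Fcor, 0.907 in Stard10, -0.564 in the DNA repair gene Nhej1 and 0.622 in Cd300lb, with adjusted p from 0.0341 to 0.077 in these 5 genes. In Cd300lb both shRNAs lay above the controls.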

How the results depend on the processing

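TE calls were 0 of 116 in every alternative that was run. The RNA calls, 4 as reported, were 2 with centred libraries, 11 (1 lower and 10 higher) with scramble shRNA alone as control, 11 without Denr shRNA1 replicate 1 and Gfp shRNA replicate 1, and 2 to 8 with each lysate left out. The footprint calls, 9 as reported, were 23 with scramble shRNA alone (10 lower and 13 higher) and 5 to 18 with each lysate left out. The calls of all readouts together, 13 as reported, were 34 with scramble shRNA alone and 7 to 22 with each lysate left out. The shares of all genes called in the same alternatives are not set beside these counts. The rises and falls are therefore no result about the zero-length genes. No called change of a single gene changed direction, while the medians over the 116 genes, all near 0, did: with each lysate left out they ran from -0.035 to 0.035 in TE and from -0.0027 to 0.0496 in RNA. The cause of these shifts was not tested. Single calls lost in alternatives were Pigl RNA in 13 of 22, Ranbp3l RNA in 12, Gm340 in 12, Tbc1d10a in 11, Gm21887 in 8 and Ppp1r12a in 4, the last 4 in footprints.

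Lysates of the same number did not deviate together in every pair (r over 0.1 in 10 of 15 pairs for TE, 10 for RNA and 13 for footprints), so that the numbers were not taken as pairs, although the mean r was 0.226 (TE), 0.326 (RNA) and 0.180 (footprints) for the same number and -0.113, -0.163 and -0.0894 for other numbers. With the number as a replicate block, 10 genes were called in RNA, 20 in footprints and 30 in all, and 0 in TE. Over all genes the block gave 253 lower and 750 higher RNA calls, against 91 and 282 without it. The count over all genes is not set beside the 20 footprint calls, which are no result about the zero-length genes.

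By the simulation over all genes, a TE difference of 0.3 in a single gene is mostly beyond the reach of 11 lysates. The median zero-length gene had 103 to 218 footprints per library, and detection in these genes alone was not simulated.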
